A study of Mus musculus with 4 samples.

Results

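The ephrins, Eph receptors, semaphorins, plexins and neuropilins are the large families of contact and short-range guidance cues. Their members were taken from the deposited table by gene symbol, with no measured value used: 53 genes matched, of 48432 identifiers in all. The families themselves were chosen with earlier results of these data known. The 53 genes are 8 ephrins and 20 semaphorins, counted here as 28 ligands, and 14 Eph receptors, 9 plexins and 2 neuropilins, counted as 25 receptors. Expression was measured by RNA sequencing in D2.OR cells that express BORG (2 libraries) and in parental D2.OR cells (2 libraries). D2.OR is a mouse mammary line labelled as pre-malignant hyperplastic alveolar cells, and BORG is a mouse long non-coding RNA. Both groups were kept as organoids for 7 days in DMEM with 10% FBS, 5% Cultrex basement membrane extract and antibiotics, and the comparison asks which transcripts depend on BORG. In the table the control condition is named Empty, and whether those cells carried an empty vector is not given in the sources used here. The labels state biological duplicates but not whether these were grown apart. Each p-value sets the difference between groups against the spread between libraries, which may therefore be technical.

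Eph receptors are receptor tyrosine kinases that bind ephrins on neighbouring cells. A-type ephrins are held in the membrane by a lipid anchor and bind mainly EphA receptors, whereas B-type ephrins span the membrane and bind mainly EphB receptors, and signals can run into either cell. Semaphorins bind plexins, which pass the signal to the cytoskeleton; secreted class 3 semaphorins mostly need a neuropilin as co-receptor. In mammary epithelium both systems are known for roles in cell sorting, branching and the contact between luminal and basal layers.

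The BORG-expressing libraries held 7.90 and 27.13 M fragments assigned to genes, and the parental libraries held 24.18 and 30.32 M. Of the luminal keratins, Krt8 had 439 and 295 FPKM (fragments per kilobase of transcript per M fragments) in BORG-expressing cells and 297 and 261 FPKM in parental cells, and Krt18 had 569 and 388 FPKM in BORG-expressing cells and 712 and 689 FPKM in parental cells. Krt19 was at most 0.558 FPKM in any library. Of 9 luminal and alveolar markers, 4 averaged at least 1 FPKM, and the alveolar genes Elf5 and Wap were at 0 in every library. Summed basal markers came to 485 and 281 FPKM in BORG-expressing cells against 138 and 123 FPKM in parental cells, nearly all of it Krt14, and the part of this difference in the results that follow was not tested. Summed fibroblast markers came to 95.1 and 78.0 FPKM in BORG-expressing cells and 104 and 109 FPKM in parental cells, nearly all of it Pdgfra and Col1a1, 2 of the 6 listed, and their part was not tested either. Endothelial, leukocyte and neuronal markers each summed to at most 0.600 FPKM in any library. In bulk samples, fewer cells of a type and less RNA per cell cannot be told apart. The level of BORG itself was not analysed here, so the group labels were not checked against it.

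Of the 53 guidance genes, 40 had enough fragments to be tested. With edgeR's quasi-likelihood test, 12 were higher in BORG-expressing cells and 8 were lower at an adjusted p under 0.05, and 20 did not pass. That is 50.0% of those tested, against 41.1% of all 15116 genes tested, where 19.9% were higher and 21.3% lower. At least 2-fold differences among the called genes numbered 7 higher and 5 lower, where 9.59% of all genes were that much higher and 10.0% that much lower. Of 26 ligands tested, 10 were higher and 5 lower, so 57.7% were called. Of 14 receptors tested, 2 were higher and 3 lower, so 35.7% were called. Whether ligands and receptors differ in this was not tested. The median log2 fold change was 0.26 over the ligands and 0.00 over the receptors, against 0.02 over all genes tested, and neither median moves with Epha8, which has no fragment in one group, set to its bound. Without BORG-expressing replicate 1, the shallowest library, 5 guidance genes rather than 8 were lower, 3 of them ligands.

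**Figure D1:**
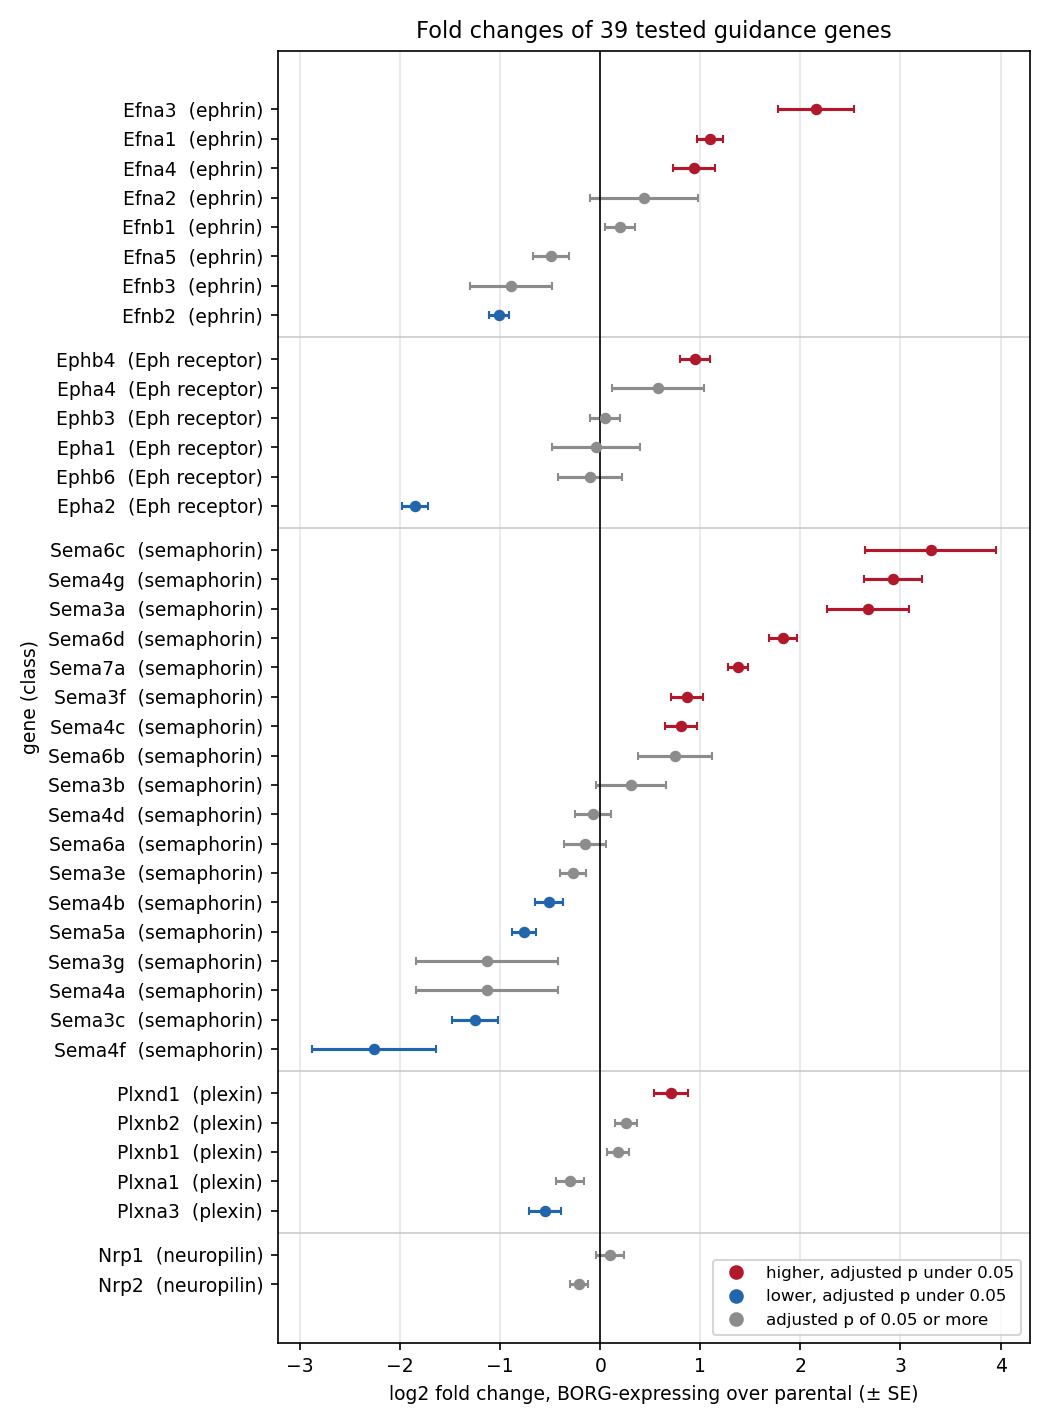
Log2 fold change of BORG-expressing over parental cells (x axis, bars ± SE, 2 libraries each) for 39 tested guidance genes, grouped by family. Epha8 is not drawn because it had no fragment in either BORG-expressing library. Semaphorins span the widest range, from -2.26 for Sema4f to 3.30 for Sema6c, and both neuropilins lie near 0.

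Of 5 A-type ephrins tested, 3 were higher in BORG-expressing cells, none was lower and 2 did not pass. Of 3 B-type ephrins 1 was lower and 2 did not pass, where 19.9% of all genes were higher and 21.3% lower. Efna1, the A-type ephrin best known as a ligand of Epha2, had 130 and 158 counts per M (CPM) in BORG-expressing cells and 70.0 and 64.3 CPM in parental cells. Both BORG-expressing libraries lay above both parental ones, a log2 fold change of 1.10 ± 0.13 (SE) with an adjusted p of 0.00146. Efna3, another lipid-anchored A-type ephrin, had 6.57 and 6.49 CPM in BORG-expressing cells and 0.967 and 1.91 CPM in parental cells. The BORG-expressing libraries were close to each other and the parental ones differed nearly 2-fold, and the log2 fold change was 2.16 ± 0.38 (adjusted p = 0.00586). On the log2(FPKM + 1) scale, which understates low genes, it was 1.30. Efna4 reached 11.7 and 12.9 CPM in BORG-expressing cells against 7.35 and 5.58 CPM in parental cells, a log2 fold change of 0.94 ± 0.21 (adjusted p = 0.0140). Its call was lost without parental replicate 2 (adjusted p = 0.0687).

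These 3 called A-type ephrins are neighbours on the minus strand of chromosome 3 in GRCm38: Efna1 at 89271733 to 89281142, Efna3 at 89313899 to 89322965 and Efna4 at 89333390 to 89338028. Gaps of 32.8 kb and 10.4 kb separate them. Sema4a, 810.6 kb from Efna1, did not pass. Sequence upstream of the start is shown for Efna3 and Efna4, the closest pair that rose, and for Epha2, the receptor that fell most among those with fragments in all libraries. The windows are bases 250 to 27 before the RefSeq start (GRCm38.p6), 5′ to 3′ on the gene's strand, and capitals mark GCGTG on either strand.
Efna3, chr3:89322966-89323189, minus strand: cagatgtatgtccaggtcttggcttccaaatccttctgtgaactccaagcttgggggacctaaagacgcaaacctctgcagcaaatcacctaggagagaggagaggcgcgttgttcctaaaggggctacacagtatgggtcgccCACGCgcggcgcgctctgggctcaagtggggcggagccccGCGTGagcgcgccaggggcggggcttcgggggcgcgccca
Efna4, chr3:89338055-89338278, minus strand: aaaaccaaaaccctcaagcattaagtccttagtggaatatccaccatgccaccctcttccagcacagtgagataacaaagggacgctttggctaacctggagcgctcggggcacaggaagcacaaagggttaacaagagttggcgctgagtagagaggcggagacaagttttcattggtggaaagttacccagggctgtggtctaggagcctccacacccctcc
Epha2, chr4:141300971-141301194, plus strand: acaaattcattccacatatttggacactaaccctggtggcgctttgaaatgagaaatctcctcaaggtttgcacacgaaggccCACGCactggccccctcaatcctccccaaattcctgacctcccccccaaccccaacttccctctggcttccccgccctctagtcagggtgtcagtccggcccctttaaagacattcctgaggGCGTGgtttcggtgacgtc
The letters searched on both strands were ACGTG and GCGTG, the core spellings of hypoxia-inducible factor elements, and TGANTCA, the AP-1 element. ACGTG is also part of the E-box CACGTG, and GCGTG is also the core of aryl hydrocarbon receptor elements. GCGTG occurred in the Efna3 window at bases 106 to 102 (minus strand) and 66 to 62 (plus strand) before the start, and in the Epha2 window at 167 to 163 (minus) and 45 to 41 (plus). It was not among the letters of the Efna4 window, and neither ACGTG nor TGANTCA was in any of the 3. Of 32851 RefSeq windows of the same length, 25.5% held GCGTG, 14.7% ACGTG and 6.23% TGANTCA, so GCGTG was present in a gene that rose, absent from its neighbour that rose and present in a gene that fell.

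Efnb2, the transmembrane ligand of Ephb4, was the ephrin that fell. It had 67.7 and 68.7 CPM in BORG-expressing cells and 138 and 137 CPM in parental cells, so replicates lay within a few percent of each other, and the log2 fold change was -1.01 ± 0.10 (adjusted p = 7.90e-04). Efnb1, its relative on the X chromosome, had 112 and 135 CPM in BORG-expressing cells and 117 and 97.8 CPM in parental cells. These groups overlapped, and the gene did not pass (0.20 ± 0.15, adjusted p = 0.303). Efna5 had 15.7 and 16.4 CPM in BORG-expressing cells and 19.6 and 25.6 CPM in parental cells (-0.49 ± 0.18, adjusted p = 0.0674), and it passed without parental replicate 1 (adjusted p = 0.0300). Efna2 and Efnb3 stayed at or under 2.61 CPM in every library and did not pass.

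Most Eph receptor RNA was Epha2, which fell in BORG-expressing cells, while Ephb4 rose. Epha2, a receptor of A-type ephrins prominent in epithelial cells, had 397 and 489 CPM in BORG-expressing cells and 1696 and 1499 CPM in parental cells. The mean was 443 ± 65.1 CPM in BORG-expressing cells and 1598 ± 139 CPM in parental cells (SD, n = 2 each), a log2 fold change of -1.85 ± 0.13 (adjusted p = 2.56e-04). Ephb4, the B-type receptor that pairs with Efnb2, had 95.6 and 105 CPM in BORG-expressing cells and 58.1 and 45.5 CPM in parental cells. Both BORG-expressing libraries were higher (0.95 ± 0.15, adjusted p = 0.00348). Ephb3, a further EphB kinase, had 17.4 and 19.3 CPM in BORG-expressing cells against 18.9 and 16.7 CPM in parental cells, overlapping ranges with a log2 fold change of 0.05 ± 0.15 (adjusted p = 0.819).

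The remaining Eph receptors were low. Epha8, chosen here after its values were seen, had no fragment in the BORG-expressing libraries and 27 and 22 fragments in the parental ones. That is at least 10.5-fold lower against a floor of 3 fragments over the group, with an adjusted p of 0.00948. Epha1, Epha4 and Ephb6 had between 1.01 and 3.16 CPM in all 4 libraries and did not pass. The other 7 of the 14 Eph receptors, Epha3, Epha5, Epha6, Epha7, Epha10, Ephb1 and Ephb2, were not tested.

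Per length, Epha2 was the most abundant of all 53 genes in parental cells, at 354 and 287 FPKM, and stood at 117 and 82.5 FPKM in BORG-expressing cells. Its share of summed Eph receptor FPKM was 77.4% and 80.6% in BORG-expressing cells against 95.5% and 95.8% in parental cells, and that of Ephb4 was 17.8% and 15.3% in BORG-expressing cells against 3.05% and 2.75% in parental cells. The level of Efna1 relative to Epha2 was 0.789 and 0.989 in BORG-expressing cells and 0.112 and 0.123 in parental cells. In the B-type pair, the receptor stood against its ligand (Ephb4 over Efnb2) at 2.12 and 1.25 in BORG-expressing cells and at 0.428 and 0.307 in parental cells. So in both pairs the partner with less RNA in parental cells rose and the one with more fell, in the A-type pair the ligand rising and in the B-type pair the receptor. Both pairs are made up of called genes. Outside the 53 genes, Rgmb and Neo1, the gene of neogenin, which Rgmb binds, also had opposite calls. Their log2 fold changes were 1.38 and -0.37. The semaphorin pairs named here did not show opposite calls. Sema3f rose while Nrp2 did not pass, Plxnd1 rose while Sema3e did not pass, and neither Sema4d nor Plxnb1 passed.

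**Figure D2:**
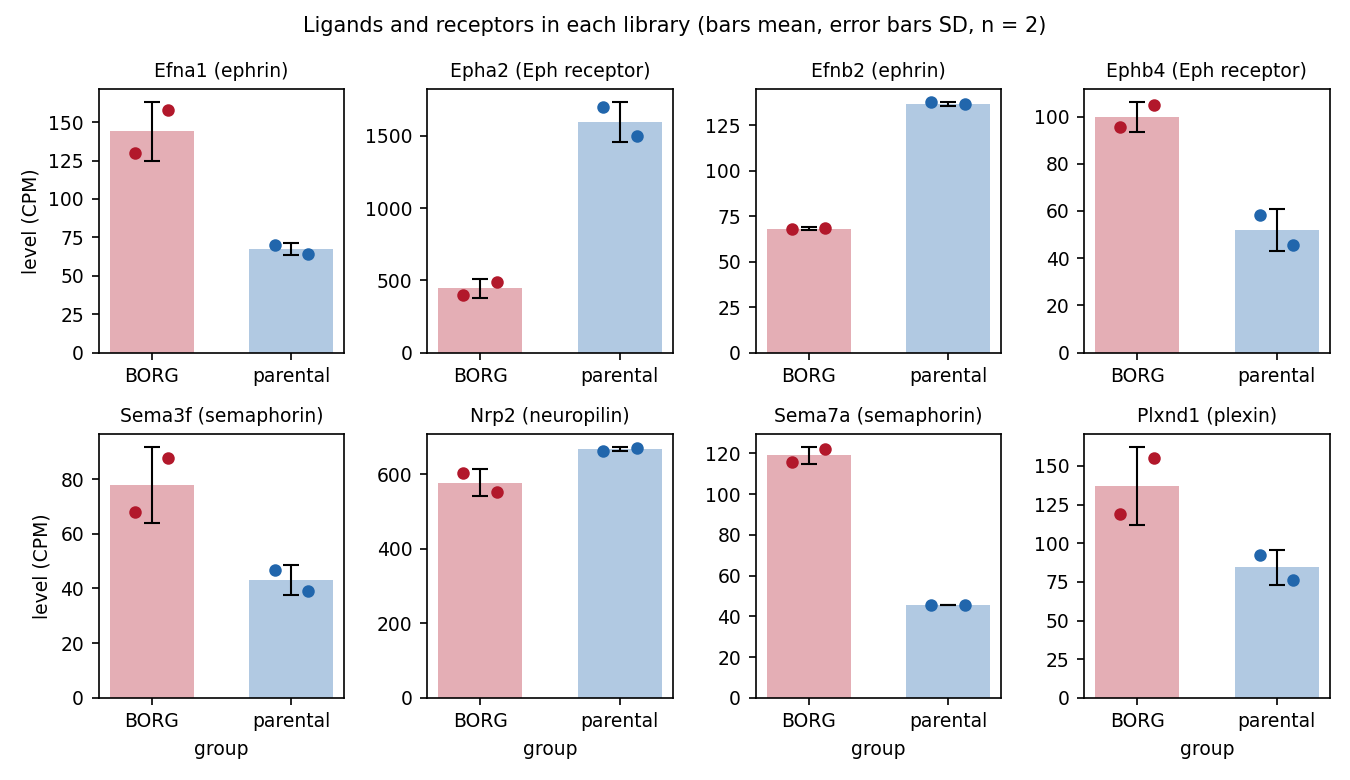
Level in CPM (y axis, from 0) of 4 ligands and 4 receptors in BORG-expressing cells (red, left) and parental cells (blue, right). Points are libraries, bars means and error bars SD (n = 2 each). Efna1 and Ephb4 were higher and Epha2 and Efnb2 lower in BORG-expressing cells, with no overlap between groups.

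Of the 20 semaphorins, 18 were tested. In BORG-expressing cells 7 were higher and 4 lower, and 7 did not pass, where 19.9% of all genes were higher and 21.3% lower. Class 3 semaphorins are secreted. Sema3f, which acts through Nrp2, had 68.1 and 87.7 CPM in BORG-expressing cells and 46.8 and 39.2 CPM in parental cells (log2 fold change 0.87 ± 0.16, adjusted p = 0.00747). Sema3c, which binds both neuropilins, had 4.29 and 4.66 CPM in BORG-expressing cells against 9.29 and 12.1 CPM in parental cells, a fall of both libraries below both controls (-1.25 ± 0.23, adjusted p = 0.00644). Sema3e, which binds Plxnd1 without a neuropilin, had 29.4 and 25.6 CPM in BORG-expressing cells and 32.3 and 33.7 CPM in parental cells and did not pass (-0.27 ± 0.13, adjusted p = 0.149). Within class 3 the rise was therefore not shared by all members. Sema3f made up 85.0% and 76.0% of class 3 FPKM in BORG-expressing cells and 65.6% and 54.7% in parental cells.

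Classes 4, 5, 6 and 7 are membrane-bound, and their members went in different directions. Sema7a, which has a lipid anchor and binds integrins as well as Plxnc1, had 116 and 122 CPM in BORG-expressing cells and 45.6 in both parental libraries. Replicates were nearly equal on each side, with a log2 fold change of 1.38 ± 0.10 (adjusted p = 2.80e-04). Sema6d, a ligand of Plxna1, had 36.5 and 40.0 CPM in BORG-expressing cells against 11.4 and 10.2 CPM in parental cells (1.83 ± 0.14, adjusted p = 3.21e-04). Its class relative Sema6a had 8.84 and 9.04 CPM in BORG-expressing cells and 11.4 and 8.52 CPM in parental cells, with overlap and no call (-0.15 ± 0.21, adjusted p = 0.601). Sema5a, whose extracellular part carries thrombospondin repeats, had 108 and 90.5 CPM in BORG-expressing cells and 162 and 173 CPM in parental cells (-0.76 ± 0.12, adjusted p = 0.00449). Thus Sema7a and Sema6d rose and Sema5a fell, each with the 2 groups apart.

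Class 4 was split. Sema4c, a ligand of Plxnb2, had 23.9 and 27.0 CPM in BORG-expressing cells and 13.4 and 15.6 CPM in parental cells (0.81 ± 0.16, adjusted p = 0.00842), a call lost without parental replicate 1 (adjusted p = 0.0525). Sema4b, per length the most abundant semaphorin, had 170 and 218 CPM in BORG-expressing cells against 289 and 262 CPM in parental cells (-0.51 ± 0.14, adjusted p = 0.0318). That call was lost in 5 of 13 processing alternatives, among them both limma fits (adjusted p = 0.281 and 0.280) and the replicate block (0.0883). Leaving out parental replicate 1 (log2 fold change -0.48) or BORG-expressing replicate 1 (-0.35) also ended it. Sema4d, the ligand of Plxnb1, had 10.5 and 13.5 CPM in BORG-expressing cells and 13.1 and 12.3 CPM in parental cells and did not pass (-0.07 ± 0.18, adjusted p = 0.802). So 1 abundant member was higher, 1 lower, and 1 was within the spread of its replicates.

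Another 4 semaphorins averaged under 1 FPKM, passed the test and were chosen here after their values were seen. Sema3a, the founding class 3 semaphorin and a ligand of Nrp1, had 3.54 and 3.28 CPM in BORG-expressing cells against 0.630 and 0.429 CPM in parental cells (2.68 ± 0.41, adjusted p = 0.00346). Sema4g had 8.08 and 10.3 CPM in BORG-expressing cells against 1.05 and 1.35 CPM in parental cells (2.93 ± 0.29, adjusted p = 6.53e-04), and 1.17 on the log2(FPKM + 1) scale. Both were several times higher in each BORG-expressing library. Sema6c had 15 and 101 fragments in BORG-expressing cells and 3 and 13 in parental cells (3.30 ± 0.65, adjusted p = 0.00914), a log2 fold change that ran from 2.69 without parental replicate 1 to 4.44 without parental replicate 2. Sema4f went the other way, with 1 and 11 fragments in BORG-expressing cells and 44 and 36 in parental cells (-2.26 ± 0.62, adjusted p = 0.0294). Its log2 fold change was -3.52 without BORG-expressing replicate 2, and leaving out parental replicate 1 (adjusted p = 0.115) or BORG-expressing replicate 1 (adjusted p = 0.0633) ended its call. Sema3b, Sema3g, Sema4a and Sema6b had at most 4.12 CPM in any library and did not pass, and Sema3d and Sema5b were not tested.

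**Figure D3:**
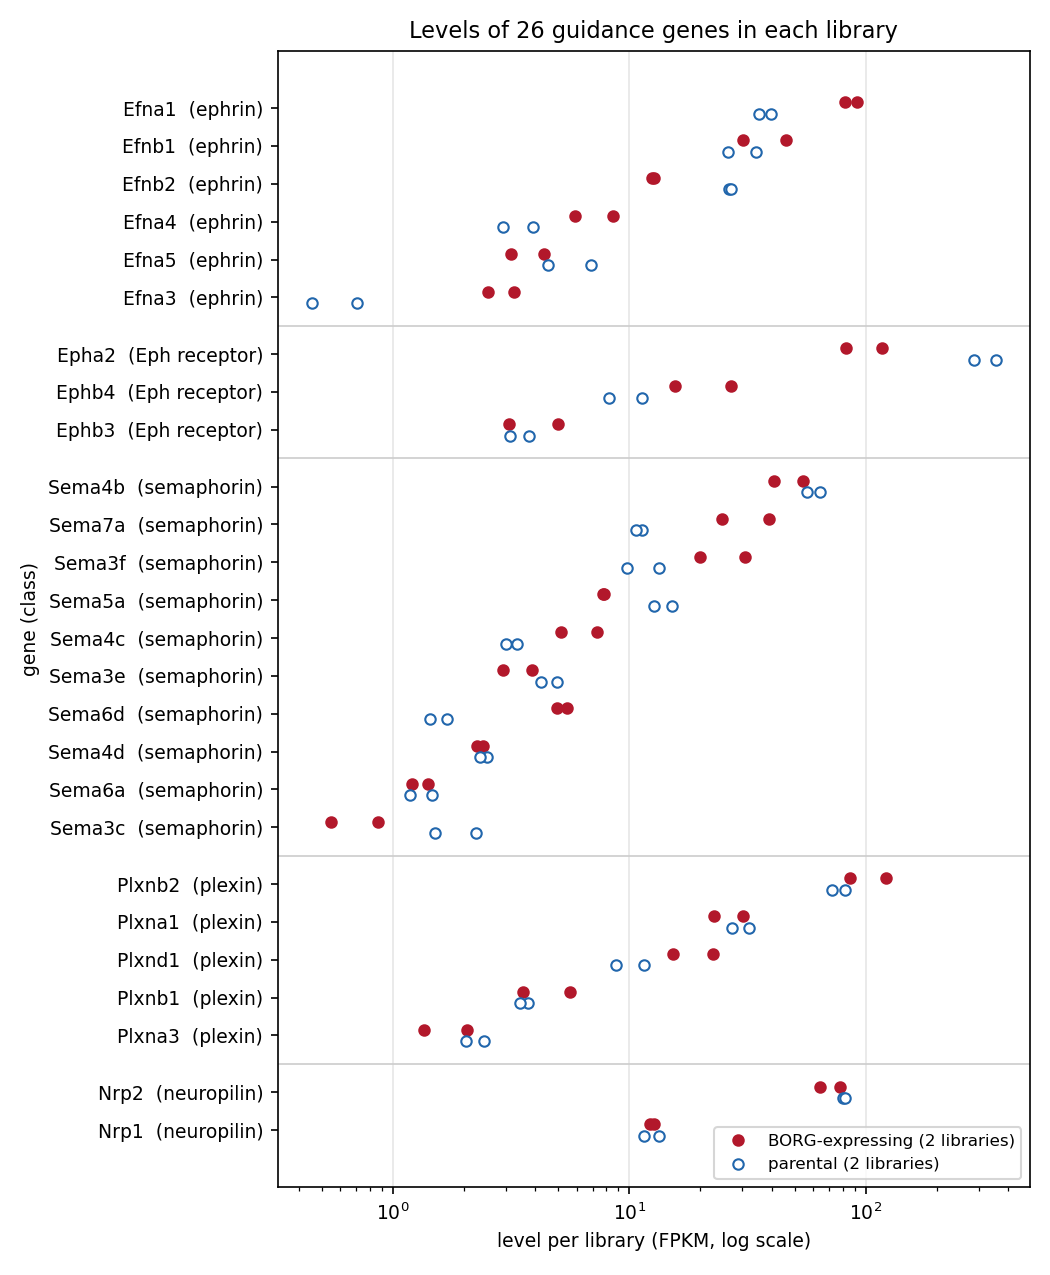
Level per length (x axis, FPKM on a log scale) of the 26 guidance genes that averaged at least 1 FPKM, one point per library, BORG-expressing cells filled red above parental cells open blue. Epha2 is the highest gene in parental cells at 354 and 287 FPKM, and Efna3 in parental cells is the lowest drawn, at 0.455 and 0.707 FPKM.

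Of the 9 plexins 5 were tested. In BORG-expressing cells 1 was higher and 1 lower, where 19.9% of all genes were higher and 21.3% lower. Plxnb2, a receptor of class 4 semaphorins, had 723 and 829 CPM in BORG-expressing cells and 669 and 630 CPM in parental cells, a log2 fold change of 0.26 ± 0.11 (adjusted p = 0.0965). It passed without BORG-expressing replicate 1 (adjusted p = 0.0478). Plxna1, which pairs with neuropilins for class 3 signals, had 234 and 296 CPM in BORG-expressing cells and 341 and 313 CPM in parental cells (-0.30 ± 0.14, adjusted p = 0.128), and passed without BORG-expressing replicate 2 (adjusted p = 0.0170). The plexin that rose was Plxnd1, the receptor of Sema3e, with 119 and 155 CPM in BORG-expressing cells against 92.4 and 76.3 CPM in parental cells (0.71 ± 0.17, adjusted p = 0.0168). Plxna3 had 12.8 and 13.1 CPM in BORG-expressing cells and 20.6 and 17.4 CPM in parental cells (-0.55 ± 0.16, adjusted p = 0.0346). The Plxna3 call was lost in 8 of 12 processing alternatives, and its groups overlapped in FPKM. Among the 8 were DESeq2 (adjusted p = 0.0585), the replicate block (0.113) and both limma fits (0.422 and 0.426). It was also lost without parental replicate 1 (log2 fold change -0.48), BORG-expressing replicate 1 (-0.54) or BORG-expressing replicate 2 (-0.57). Plxnb1, the receptor of Sema4d, had 43.6 and 46.7 CPM in BORG-expressing cells and 40.2 and 39.4 CPM in parental cells (0.18 ± 0.11, adjusted p = 0.228). Plxna2, Plxna4, Plxnb3 and Plxnc1 were not tested, so the plexin of Sema7a was among the genes with too few fragments.

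Neither neuropilin passed. Nrp2 had 603 and 551 CPM in BORG-expressing cells and 662 and 671 CPM in parental cells, a log2 fold change of -0.21 ± 0.09 (adjusted p = 0.126). Nrp1 had 104 and 82.5 CPM in BORG-expressing cells and 82.1 and 91.1 CPM in parental cells, with overlap (0.10 ± 0.14, adjusted p = 0.611). Per length Nrp2 was the more abundant of the pair, at 77.9 and 64.0 FPKM in BORG-expressing cells and 80.3 and 81.9 FPKM in parental cells. Nrp1 stood at 12.7 and 12.2 FPKM in BORG-expressing cells and 11.5 and 13.4 FPKM in parental cells. The ratio of Sema3f to Nrp2 was 0.397 and 0.313 in BORG-expressing cells and 0.166 and 0.119 in parental cells.

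Over whole classes, summed FPKM of A-type ephrins was 108 and 94.9 in BORG-expressing cells against 49.0 and 46.1 in parental cells, while that of B-type ephrins was 58.9 and 43.3 in BORG-expressing cells against 61.3 and 53.7 in parental cells, with overlap. Summed EphA receptors stood at 118 and 83.1 FPKM in BORG-expressing cells and 355 and 288 FPKM in parental cells, and EphB receptors at 32.7 and 19.2 FPKM in BORG-expressing cells against 15.7 and 11.9 FPKM in parental cells. Class 3 semaphorins summed to 36.4 and 26.4 FPKM in BORG-expressing cells and 20.3 and 17.8 FPKM in parental cells. Class 4 overlapped, with 65.8 and 49.8 FPKM in BORG-expressing cells and 70.5 and 62.7 FPKM in parental cells. For the plexins, the sums were 183 and 129 FPKM in BORG-expressing cells and 131 and 114 FPKM in parental cells, of which Plxnb2 made up 62.1% to 66.8% in the 4 libraries. The deposited FPKM do not scale like the CPM: the ratio of BORG-expressing replicate 1 to replicate 2 had a median of 1.33 over the 26 genes in FPKM and 0.91 in CPM.

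The 13 untested guidance genes reached at most 0.0646 FPKM in any library, and Epha10 and Sema5b were listed at 0 in all 4. Among them Epha3, also picked after its values were seen, had 2 and 7 fragments in BORG-expressing cells and none in parental cells. Counts can be shared with genes on the opposite strand, since the strand setting is not given in the sources used here: exons of 11 guidance genes overlap those of another gene that way. Of the called ones these are Efna3, Efna4, Ephb4 and Sema4c. The partner of Ephb4, Zan, had 43 and 178 fragments in BORG-expressing cells and 373 and 394 in parental cells. The partner of Efna3, Gm15998, had 8 and 33 fragments in BORG-expressing cells and 38 and 20 in parental cells. Efna3 itself had 52 and 178 fragments in BORG-expressing cells and 23 and 58 in parental cells. The level of Efna3 in parental cells is therefore uncertain, and the part of shared fragments in its fold change was not tested. The partners of Efna4 and Sema4c had at most 21 fragments in any library. Among genes that did not pass, Epha1 had 25 and 45 fragments in BORG-expressing cells and 66 and 59 in parental cells, while its partner Zyx had 464 and 1807 in BORG-expressing cells and 4181 and 4204 in parental cells, so the level of Epha1 is uncertain. Plxna1 and Plxnb1 have partners of at most 10 fragments in any library.

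Other guidance genes and the machinery below the receptors were counted in a list of 96 genes, of which 81 were tested. In BORG-expressing cells 22 were higher and 20 lower, 51.9% of those tested, against 41.1% of all genes (19.9% higher and 21.3% lower), and without parental replicate 2 the number lower was 13. Among netrins, slits and their relatives, 4 of 11 tested were higher and 2 lower. Ntn4, a basement membrane netrin, had 72.3 and 69.1 CPM in BORG-expressing cells against 26.1 and 28.6 CPM in parental cells (1.37 ± 0.11, adjusted p = 3.69e-04). Slit2, the secreted ligand of Robo receptors, had 73.4 and 73.2 CPM in BORG-expressing cells and 36.9 and 38.0 CPM in parental cells (0.97 ± 0.10, adjusted p = 9.21e-04). Rgmb, a repulsive guidance molecule that binds neogenin and BMPs, had 46.6 and 54.4 CPM in BORG-expressing cells and 19.9 and 19.1 CPM in parental cells (1.38 ± 0.13, adjusted p = 6.15e-04). These 3 were chosen as the called genes with the smallest p in this list, and all were higher in both BORG-expressing libraries. The 2 lower genes were the netrin Ntn1 and Neo1, the gene of neogenin, so the netrins of this list did not all rise.

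Of 21 kinases, adaptors and phosphatases tested, 5 were higher and 7 lower, where 19.9% of all genes were higher and 21.3% lower. Fyn, a Src-family kinase that acts below Eph receptors and plexins, had 12.6 and 10.6 CPM in BORG-expressing cells against 86.9 and 84.3 CPM in parental cells (-2.90 ± 0.13, adjusted p = 8.22e-05). Inppl1, the SHIP2 phosphatase that binds Epha2, had 176 and 193 CPM in BORG-expressing cells and 79.9 and 70.6 CPM in parental cells (1.30 ± 0.12, adjusted p = 5.22e-04). Flna, an actin crosslinker, had 2188 and 2175 CPM in BORG-expressing cells and 3625 and 3682 CPM in parental cells (-0.74 ± 0.09, adjusted p = 0.00120), a call absent from both limma fits (adjusted p = 0.116 and 0.114). Fyn was thus lower and Inppl1 higher in both BORG-expressing libraries, with the groups far apart.

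Among 17 cytoskeletal effectors tested, 7 were higher and 2 lower, where 19.9% of all genes were higher and 21.3% lower. The higher ones included the actin oxidase Mical1, with 32.2 and 30.3 CPM in BORG-expressing cells against 12.7 and 16.5 CPM in parental cells (1.09 ± 0.17, adjusted p = 0.00379). Its relative Mical2 had 24.4 and 23.2 CPM in BORG-expressing cells and 8.11 and 9.51 CPM in parental cells (1.43 ± 0.16, adjusted p = 0.00111). Dpysl2, a collapsin response mediator first described below Sema3a, had 364 and 381 CPM in BORG-expressing cells and 187 and 190 CPM in parental cells (0.98 ± 0.10, adjusted p = 6.51e-04). Of 4 sheddases that release ephrins and semaphorins, 1 was higher and 2 were lower.

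**Figure D4:**
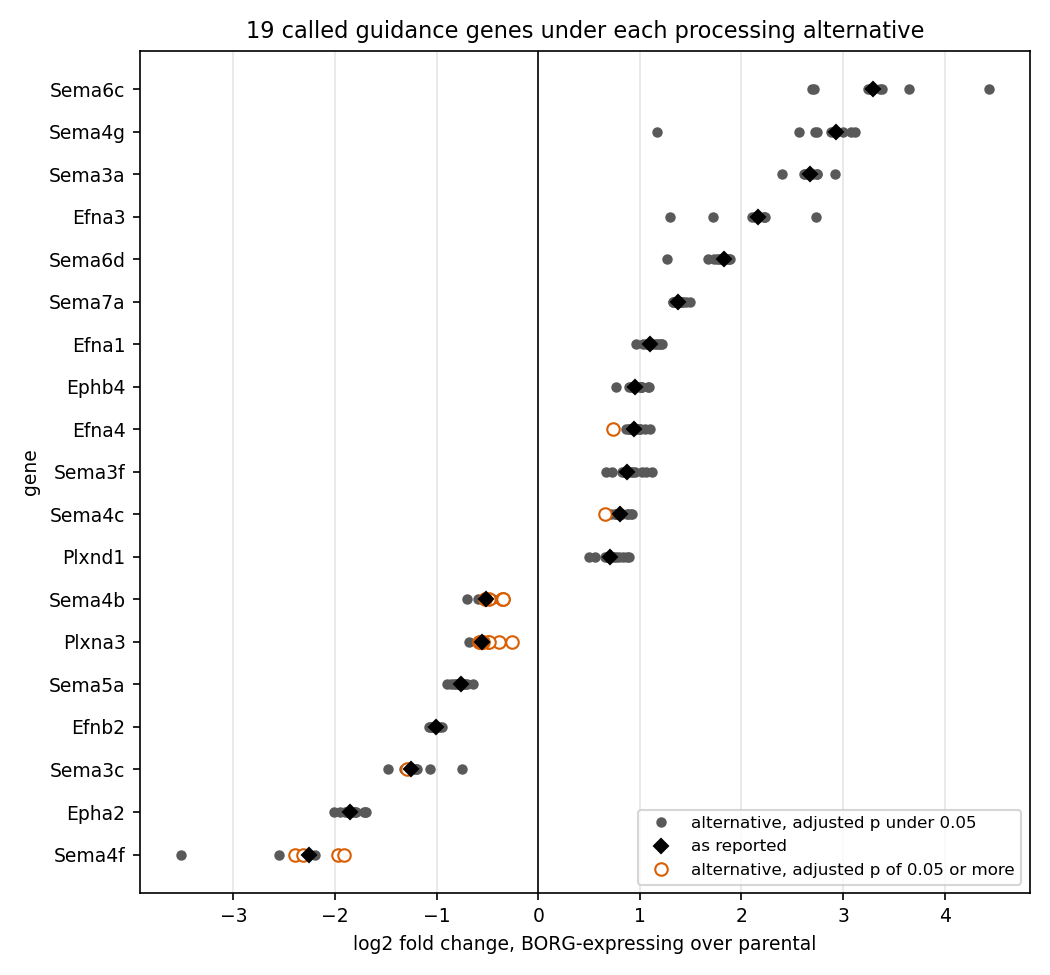
Log2 fold change of BORG-expressing over parental cells (x axis) for 19 called guidance genes under each processing alternative. Black diamonds are the values as reported, grey points alternatives that passed and open orange circles alternatives that did not. None crosses 0, and open circles appear for Efna4, Sema4c, Sema4b, Plxna3, Sema3c and Sema4f.

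Over 13 alternatives in normalisation, filtering, test and left-out libraries, none of the 20 called guidance genes changed direction and 14 kept their call throughout, wherever they were tested, among them Efna1, Efna3, Efnb2, Epha2, Ephb4, Sema7a and Sema6d, as the plot of the alternatives shows for all but Epha8.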

How the data were processed

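RNA of 4 libraries was measured, 2 from BORG-expressing and 2 from parental D2.OR cells. Per the labels' protocols, total RNA was made into stranded libraries. Cufflinks, TopHat, Trim Galore and FastQC, without versions, and the builds GRCm38, mm10 and mm8 are named in the submitters' processing notes. Which annotation release and strand setting were used is not given in the sources used here.

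Per the file headers, the authors deposited estimated counts of fragments and FPKM for every gene in each library. The other 2 per-sample columns were not used. Its replicates 0 and 1 were read as replicates 1 and 2, and its condition Empty as parental. Identifiers were matched to GENCODE M21 symbols (48051 of 48432).

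The estimated counts were rounded. The test was the two-sided quasi-likelihood F test of edgeR 4.0.16 (R 4.3.3) after TMM scaling and filterByExpr, with Benjamini-Hochberg adjustment over 15116 genes and a threshold of 0.05. SE is the log2 fold change over the square root of F. CPM use TMM factors. No p was computed over a list of genes. The test was run on simulated counts of 15116 genes, of which 100 were changed by 1 and 100 by 2 on the log2 scale. Of these, 58.0% and 69.0% were recovered, and 0.23% of unchanged genes were called. Far fewer genes were changed there than the 41.1% called in the data, so these rates may not carry over.

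Alternatives were edgeR with DESeq2 size factors or upper-quartile factors, DESeq2 1.42.0, limma 3.58.1 on log2(FPKM + 1) and log2(FPKM + 0.1), other filters, each library left out and a replicate block. The gene families, the other gene lists, the markers and the motifs were chosen with earlier results of these data known. Values per library are given for members that were tested and averaged at least 1 FPKM, and for up to 3 called genes with the smallest p of each of 4 other sublists, 1 of which is not reported here. Epha3, Epha8, Sema3a, Sema4f, Sema4g and Sema6c fall outside this choice and were picked with their values in view. Epha1 also falls outside it and is given for its overlap with Zyx. Promoter windows are RefSeq's (47 of 53 genes had one), trimmed to bases before both the RefSeq and GENCODE starts.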

Additional observations from a re-analysis of the deposited data

How the results depend on the processing

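None of the 20 called guidance genes reversed under the 13 alternatives; 222 of 242 values kept the call and 20 lost it, for Efna4, Sema3c, Sema4b, Sema4c, Sema4f and Plxna3. Among 11 guidance genes of at least 1 FPKM that did not pass, 11 of 137 values passed and 6 reversed, all with a library left out: Ephb3 (-0.05 without parental replicate 2, -0.03 without BORG-expressing replicate 2; range -0.05 to 0.11), Nrp1 (-0.02 without parental replicate 1, -0.08 without BORG-expressing replicate 1; range -0.08 to 0.27), Sema4d (0.08 without BORG-expressing replicate 1; range -0.28 to 0.08) and Sema6a (0.02 without parental replicate 1; range -0.36 to 0.02). The cause was not tested. The limma fits on log2(FPKM + 1) and log2(FPKM + 0.1), which tested 12871 genes and 27 guidance genes, called 1626 and 1594 genes higher and 1998 and 1944 lower. They called 4 and 3 guidance genes lower (ligands 3 and 2, receptors 1 and 1) and 6 and 6 of the other guidance list. A mean of at least 5 FPKM left 15 guidance genes tested, 6 higher (4 ligands) and 4 lower (3 ligands, 1 receptor). Leaving out each library in turn gave 5 to 8 guidance genes lower, 3 to 5 of them ligands, and 13 to 20 lower in the other list. The replicate numbers were not shown to pair libraries: there are 2 pairs, the labels do not say that a number marks a shared source, and same-numbered deviations correlated at -0.441. With the replicate block, 1986 genes were higher and 2204 lower, 12 guidance genes higher and 5 lower (3 ligands), and 9 lower in the other list. With the crossed replicate block, added after seeing the data, 4619 genes were higher and 4700 lower, with 13 guidance genes lower (8 ligands, 5 receptors). The 13 untested guidance genes had at most 8 fragments in any library, and 40 guidance genes were tested whichever library was left out.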
